A study of Rattus norvegicus with 24 samples.

Results

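Rab GTPases other than those of the Rab3 and Rab27 groups, which act at granule exocytosis, were examined in the supraoptic nucleus of dehydrated and control rats. Members were all probe sets of the array whose only gene symbol in the platform annotation was Rab followed by a digit, without Rab3a, Rab3b, Rab3c, Rab3d and Rab27. This gave 100 probe sets for 60 genes, of 31099 probe sets and 14218 named genes on the array, and 27 of the 60 genes had more than 1 probe set. Symbols such as Rab11fip4 and Rab3gap2 met the same rule although they name partners of a Rab and not a GTPase, and these are kept apart as Rab partners. A further 3 probe sets that carried a Rab symbol together with other symbols were not members.

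RNA was taken from the supraoptic nucleus, a hypothalamic cell group whose magnocellular neurons make vasopressin and oxytocin, and each array held a pool of 5 Sprague Dawley rats. The dehydrated females had no water for 72 hours (5 arrays, of which 4 were used) and were set against euhydrated females (4 arrays); the age of the females is not given in the labels. The dehydrated males were dehydrated for 3 days (5 arrays) and were set against control males (5 arrays), and the males were 10 to 12 weeks old. Trizol extraction and an Affymetrix labelling protocol were used for the females, and the male RNA was extracted with QIAzol and RNeasy columns and amplified with an Ambion kit, so sex, extraction, labelling and signal software cannot be told apart between the sets. All rats were of a single outbred strain with no transgene. According to the design text, the pools of a group may be technical as well as biological replicates. Every p-value therefore measures the spread between arrays, which may not be that between independent pools.

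Rab proteins are small GTPases that switch between an inactive form bound to GDP and an active form bound to GTP. Exchange factors (GEFs) load GTP, activating proteins (GAPs) speed its hydrolysis, and the active form recruits effectors such as tethers and motor adaptors to the membrane on which the Rab sits. Rab5 and its relatives mark early endosomes, Rab4 and Rab11 recycling endosomes, Rab7 and Rab9 late endosomes, and Rab1, Rab2 and Rab6 the traffic between endoplasmic reticulum and Golgi. In magnocellular neurons, neuropeptide precursors pass through the Golgi into dense-core granules, and membrane added by exocytosis is taken back through endosomes.

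The array titled CH2770, labelled as a dehydrated female pool, stood apart: its deposited signal was 50.6 for Avp and 26.0 for Oxt, against at least 3834 and 3330 on the other 4 dehydrated female arrays and 3644 and 3001 on the 4 control female arrays. It was left out, and values with it are given where they change a call. On the arrays used, the ratio of the 5′ to the 3′ control probe set of Gapdh, which falls when RNA is degraded or its copies are short, was 0.596 to 0.939 on dehydrated and 0.243 to 0.980 on control female arrays. In the males it was 0.257 to 0.368 on dehydrated and 0.286 to 0.402 on control arrays. Control female array 2 had the 0.243, and dehydrated female array 4 the 0.596. On the other 18 arrays, which were the ones used, Avp and Oxt read at least 3001, as the labelled nucleus requires.

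A single Rab, Rab11a, was called in both sets, higher with dehydration. In the females it was the only call among the 83 Rab probe sets tested, which is 1.2% against 2.96% of all 21729 probe sets (1.77% called higher). In the males 11 of 84 Rab probe sets were called, 13.1% against 17.7% of all probe sets; 9 were higher and 2 lower, beside 8.32% and 9.38% of all probe sets. A probe set was called when its limma p, adjusted by Benjamini-Hochberg over all 21729, was under 0.05. Each fold change sets dehydrated over control, on the log2(signal + 32) scale after each array was scaled to a trimmed mean of 500, which understates the change of dim probe sets.

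Counted with 1 probe set per gene, 1 of 54 Rab genes was called in the females, where 3.83% of all genes were, and 9 of 54 in the males, where 21.1% of all genes were. The Rab shares were 1.85% and 16.7%, and whether they differ from those of all genes was not tested. The median log2 fold change of the Rab probe sets was 0.04 in females and 0.03 in males, against −0.03 and −0.04 for all probe sets. At an unadjusted p under 0.05, 16 of 83 Rab probe sets passed in females (10 higher, 6 lower) and 22 of 84 in males (15 higher, 7 lower), where 19% and 31.4% of all probe sets did. The median size of a Rab change, sign aside, was 0.17 in females and 0.13 in males. Of the 100 probe sets, 15 were too dim to be tested in any fit. The split between higher and lower calls moved with the setting. With the arrays centred on their medians the male calls were 14 higher and 1 lower, and without control male array 2 they were 5 higher and 3 lower. Counted by gene the male split was 8 higher and 1 lower, and 6 higher and 3 lower with quantile normalization. In females, array weights gave 3 higher and 5 lower.

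**Figure D1:**
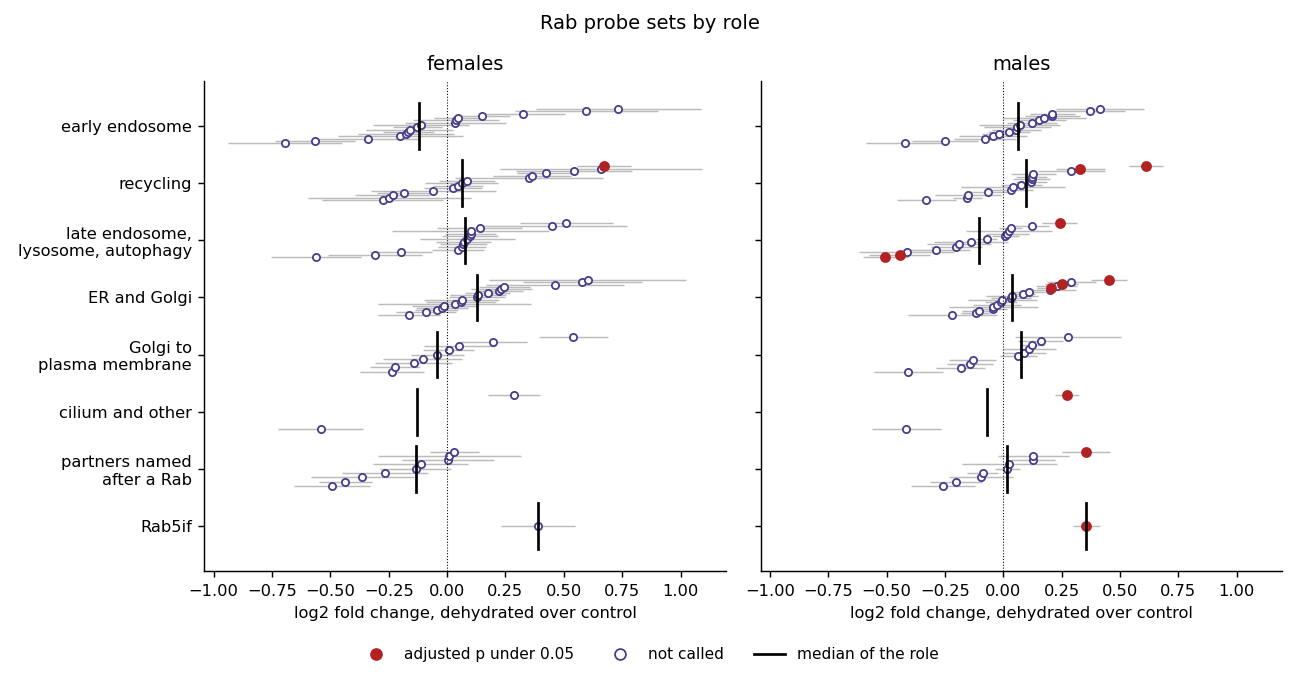
Each point is 1 Rab probe set, with its log2 fold change (dehydrated over control) and standard error on the horizontal axis and its role on the vertical axis, in females (left) and males (right); filled points were called and bars mark the median over the probe sets of a role. The 11 male calls lie in the recycling, late endosomal, Golgi, ciliary, partner and Rab5if rows, and the early endosomal row has no call in either set.

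Promoter sequence is shown for the 4 GTPase genes whose male calls held under every alternative tried, because their changes are the ones the account turns on. The 250 bases before each gene's start are given in the sense of the gene, from RefSeq on build GRCr8; capitals mark GGGCGG (the GC box) and TGACGT (the core of a cAMP response element) on either strand, so that CCGCCC is a GC box on the other strand. Rab11a is at chr8:74141685-74141934 (minus strand), Rab6b at chr8:112573973-112574222 (plus strand), Rab28 at chr14:73458178-73458427 (plus strand) and Rab34 at chr10:63581292-63581541 (plus strand).
Rab11a: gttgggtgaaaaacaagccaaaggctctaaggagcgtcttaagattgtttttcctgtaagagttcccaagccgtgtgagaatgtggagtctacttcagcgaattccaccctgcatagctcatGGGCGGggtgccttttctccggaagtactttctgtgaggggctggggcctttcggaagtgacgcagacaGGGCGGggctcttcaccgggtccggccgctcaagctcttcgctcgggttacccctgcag
Rab6b: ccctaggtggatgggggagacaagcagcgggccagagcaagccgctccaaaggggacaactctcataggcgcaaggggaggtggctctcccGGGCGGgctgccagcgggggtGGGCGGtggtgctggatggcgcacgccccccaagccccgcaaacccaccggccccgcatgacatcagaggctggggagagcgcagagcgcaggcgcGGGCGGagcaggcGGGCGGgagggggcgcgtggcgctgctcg
Rab28: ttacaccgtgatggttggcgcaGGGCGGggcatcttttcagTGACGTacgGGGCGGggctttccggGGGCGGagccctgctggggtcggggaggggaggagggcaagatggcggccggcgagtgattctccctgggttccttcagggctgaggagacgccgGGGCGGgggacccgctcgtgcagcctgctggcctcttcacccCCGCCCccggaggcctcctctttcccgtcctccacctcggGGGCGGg
Rab34: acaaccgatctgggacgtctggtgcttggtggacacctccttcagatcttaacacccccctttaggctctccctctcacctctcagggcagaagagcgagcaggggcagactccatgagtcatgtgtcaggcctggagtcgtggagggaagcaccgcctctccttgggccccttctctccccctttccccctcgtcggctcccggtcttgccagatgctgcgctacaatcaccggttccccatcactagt
Rab11a had 2 GC boxes, Rab6b 4 and Rab28 6, and Rab34 had none in this window. Of the 10 genes with a call 7 had a GC box; Rab6a, which rose, and Rab12 and Rab34, which fell, had none. A promoter entry was found for 46 of the 60 Rab genes. GGGCGG stood in 37 of these 46 (80.4%), against 30.5% of 33469 rat promoters of the same length, and the median GC content was 64.2% in the Rab promoters against 51.2% in all. TGACGT stood in 7 of 46 Rab promoters (15.2%) against 6.95% of all, and among the 10 genes with a call it was found in Rab28 and Rab5if. The E-box CACGTG was in 8.7% of Rab promoters and 5.59% of all, and CCAAT in 34.8% and 34%. These letters describe the windows only, and whether a factor binds them was not tested.

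No early endosomal Rab was called by limma in either set, with 2 of its 16 tested probe sets in females and 4 of 16 in males below 0.05 before adjustment (19% and 31.4% of all probe sets). Of 20 probe sets for 8 genes (Rab5a, Rab5b, Rab5c, Rab17, Rab20, Rab21, Rab22a, Rab31), 16 for 7 genes were bright enough to be tested, and the 3 probe sets of Rab17, an epithelial Rab, were not. With 1 probe set per gene the median log2 fold change was −0.13 in females (3 of 7 above 0) and 0.12 in males (6 of 7 above 0). Rab5b, 1 of the 3 Rab5 forms that drive fusion of early endosomes, came closest in the females at probe set 1388823_at. Its signals were 328, 269, 521 and 328 on the dehydrated female arrays, against 468, 546, 565 and 514 on the control female arrays. In the males they were 472, 370, 511, 490 and 472 with dehydration, against 398, 497, 468, 496.5 and 409.5 in controls. Dehydrated female array 3 lay inside the control range and the other 3 below it, while the male groups overlapped throughout. The log2 change was −0.57 ± 0.17 (SE) in females (adjusted p = 0.0978) and 0.03 ± 0.09 in males (adjusted p = 0.879). Without dehydrated female array 3 the female value was −0.75 (adjusted p = 0.00993), and it was also called with array weights (−0.60, adjusted p = 0.025) and in 1 fit over all 4 groups (−0.57, adjusted p = 0.0152). The other tested Rab5b probe sets, 1378035_at, 1393288_at and 1399153_at, gave 0.04, −0.34 and −0.20 in females. In males they gave 0.17, 0.06 and 0.37 in the same order, and none of them was called.

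Rab5a and Rab5c, the other Rab5 forms, did not pass the test. Rab5a at probe set 1388800_at averaged 564 ± 55.4 in dehydrated and 545 ± 27.9 in control females (SD, n = 4 each), and 433 ± 33.8 in dehydrated and 394 ± 76.0 in control males (SD, n = 5 each). Its fold changes were 0.05 ± 0.10 in females and 0.15 ± 0.11 in males on the log2 scale (SE). Rab5c averaged 107 ± 25.4 in dehydrated and 120 ± 24.8 in control females, and 102 ± 7.53 in dehydrated and 94.3 ± 15.6 in control males. Each of these differences was within the spread of its groups. Rab31, which acts between the trans-Golgi and endosomes, had the lowest male p of the role at probe set 1370780_at. Its signals were low, 15.3, 24.2, 20.3, 21.0 and 13 in dehydrated males, against 32.3, 32, 25.5, 21.1 and 24.9 in control males. The groups touched at 1 control and 1 dehydrated array, and the value of −0.42 ± 0.17 (SE) had an adjusted p of 0.0943. The other Rab31 probe set gave −0.02 ± 0.07 in males.

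The clearest change was that of a single recycling Rab. In this role 1 of 15 tested probe sets was called in females and 2 of 14 in males, all higher. Of all probe sets 2.96% and 17.7% were called in either direction, so no pattern of the role is shown. Rab11a, the ubiquitous Rab of the recycling endosome, rose in both sets at probe set 1398814_at. Dehydrated females had signals of 931, 886, 794 and 1120, against 575, 590, 587 and 564 in control females. Dehydrated males had 920, 955, 801, 921 and 802, against 497, 569, 645, 570 and 593 in control males. Every dehydrated pool lay above every control pool of its set, and the lowest dehydrated signal, 794, exceeded the highest control signal, 645, across both sets. On the log2 scale this was 0.67 ± 0.11 (SE) in females (adjusted p = 0.0116) and 0.61 ± 0.07 in males (adjusted p = 6.5e-05). The difference between the sets was 0.06 ± 0.13 (adjusted p = 0.933).

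The other Rab11a probe set, 1374069_at, did not follow. It read 425, 419, 438 and 507 in dehydrated females, against 386, 472, 445 and 425 in control females. In males it read 369, 415, 342 (array 3), 399 and 366 with dehydration, against 336 (array 1), 326, 363, 346 and 363 in controls. The groups overlapped in both sets, with log2 fold changes of 0.05 ± 0.11 (SE) in females and 0.12 ± 0.06 in males (adjusted p = 0.848 and 0.222). The change of 1398814_at exceeded that of 1374069_at by 0.62 in females (exact permutation p = 0.0286, two-sided, n = 4 each) and by 0.49 in males (exact permutation p = 0.00794, n = 5 each), in each case the smallest p the design allows. Both stood at 0.0794 after Benjamini-Hochberg adjustment over the 10 such probe set pairs and sets compared. Pairs were formed only for genes with a called probe set, and the called one was set first. The same arrays gave the calls, so these p-values do not allow for that choice and favour an excess. Where on the Rab11a transcripts the probe sets lie is not given in the sources used here, so which transcript ends rose was not tested.

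**Figure D2:**
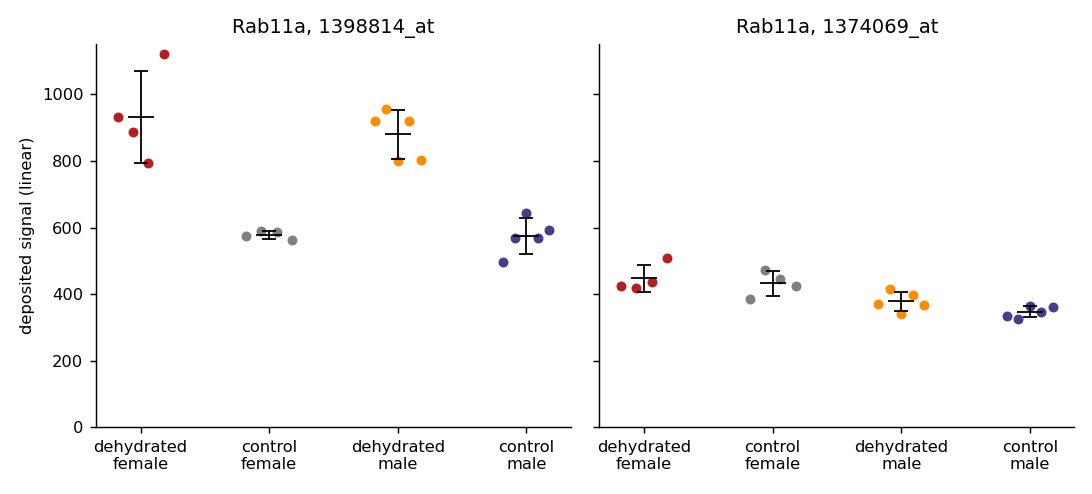
Deposited signal (linear vertical axis) of both Rab11a probe sets on each array of the 4 groups, dehydrated left of control within each sex; bars are mean and SD. At 1398814_at all dehydrated arrays lie above all control arrays, and at 1374069_at the groups overlap.

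Part of the magnocellular markers rose beside Rab11a: 6 of 11 tested markers were higher in dehydrated females and 7 of 11 in dehydrated males, and none were lower. Calb2, Th, Crh, Pdyn, Scg2 and Vgf were higher in both sets, and Slc17a6 in males only. Avp, Oxt, Gal and Cck were called in neither set. The log2 fold changes of Avp and Oxt were 0.33 and 0.40 in females and 0.08 and 0.02 in males. The summed signal of all 11 magnocellular markers was 15669 to 24050 in dehydrated against 11506 to 12997 in control females. In males this sum was 17627 to 20630 in dehydrated against 13421 to 15731 in control arrays. The part of these cells in the Rab11a result was not tested. In tissue of mixed cells, a change in the number of cells of a type and a change in RNA per cell cannot be told apart.

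Rab4b, a Rab of fast recycling from early endosomes, was the other recycling call and rose in dehydrated males. Its signals were 100, 87.1, 76.4, 92.6 and 94.2 in dehydrated males, against 79.9, 75.4, 75.2, 59.5 and 62.7 in control males. A single dehydrated pool, at 76.4, fell inside the control range. In log2 terms it amounted to 0.33 ± 0.10 (SE, adjusted p = 0.0407). Females gave 68.5, 45.2, 57.3 and 38.8 with dehydration, against 80.6, 27.9, 53.0 and 67.3 in controls, which overlapped throughout (−0.06 ± 0.27, adjusted p = 0.93). The male call of Rab4b was lost under 10 of 19 alternatives. Rab4a had 0.13 ± 0.10 in males and −0.23 ± 0.16 in females, neither of them called.

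Rab14, which works between the trans-Golgi network and recycling endosomes, gave the lowest adjusted p among Rabs in the test of the difference between the sets. At probe set 1367884_at dehydrated females had 630, 554, 478 and 654, against 418, 469, 369 and 458 in control females. Dehydrated males had 605, 562, 500.0, 554 and 535, against 556, 658, 632, 604 and 619 in control males. The female groups were separate, with the dehydrated higher, and 3 of 5 dehydrated male arrays lay below all male controls. In log2 fold change this came to 0.42 ± 0.13 (SE) in females (adjusted p = 0.0923) and −0.15 ± 0.06 in males (adjusted p = 0.102), and neither was called. Their difference, 0.58 ± 0.13, had an unadjusted p of 0.000271 and an adjusted p of 0.0966. Another 3 Rab14 probe sets were tested and gave female values of 0.06, 0.36 and 0.35, with male values of 0.12, 0.03 and −0.33 in the same order. The remaining recycling genes (Rab11b, Rab15, Rab25, Rab35) were not called, and the 8 genes had medians of 0.06 in females and 0.10 in males.

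Both male falls came from the role of late endosomal, lysosomal and autophagic Rabs. They were 2 of its 14 tested probe sets, where 9.38% of all probe sets were called lower in males. Counted by gene, 1 of 11 was lower and 1 higher, so no pattern of the role is shown. Rab34, a Golgi Rab that positions lysosomes and takes part in building the primary cilium, was lower in dehydrated males at probe set 1376573_at. Its signals were 182 (array 1), 139, 170, 166 and 157 in dehydrated males, against 266, 264 (array 2), 239, 207 and 196 in control males. Dehydrated females had 130, 144, 116 (array 3) and 126, against 187, 95.1, 187 and 198 in control females. All dehydrated male pools lay below all control pools, and the same held in females apart from control array 2. Its log2 fold change was −0.51 ± 0.10 (SE) in males (adjusted p = 0.00277) and −0.31 ± 0.20 in females (adjusted p = 0.435). Without control female array 2, the array with the lowest Gapdh ratio, the female value was −0.55 (adjusted p = 0.0237), so a single pool decided the female call. The dim Rab34 probe set 1375558_at gave 0.02 ± 0.18 in males and 0.09 ± 0.20 in females.

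Most markers of the meningeal and mural list were lower in dehydrated males, as Rab34 was. In males 12 of 14 were called lower, with summed signals of 2204 to 5152 in dehydrated against 4122 to 9187 in control males. Only Rgs5 was called higher there (0.60 ± 0.10 SE, limma adjusted p = 0.00123). In females 4 of 14 were lower (Col1a2, Igfbp2, Slc13a4 and Ogn). The female sums were 2129 to 2609 in dehydrated against 3016 to 4297 in control arrays. Rgs5 and Acta2 were above 0 in females (0.72 ± 0.18 and 0.14 ± 0.27), neither of them called. Microglial markers were also lower in males, at 6 of 10 tested, with sums of 1041 to 1530 in dehydrated against 1346 to 2155 in control males. The part of these cells in the Rab34 result was not tested.

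Rab12, which sends transferrin receptor from recycling endosomes to lysosomes, was lower in dehydrated males at the dim probe set 1371055_at. It read 31.4, 45.0, 37.2, 38.0 and 31.7 in dehydrated males, against 56.3, 45.5, 51.1, 44.0 and 64.5 in control males. Dehydrated females read 104, 127, 102 and 73.3, against 84.4, 46.1, 69.3 and 79.2 in control females. A single dehydrated male array reached the lowest controls, and the female groups leaned the opposite way with overlap. The fitted log2 change was −0.44 ± 0.13 (SE) in males (adjusted p = 0.0283) and 0.51 ± 0.20 in females (adjusted p = 0.192), and the difference between the sets was 0.95 ± 0.24 (unadjusted p = 0.000616, adjusted p = 0.13). The other Rab12 probe set, 1371871_at, gave −0.07 ± 0.05 in males and 0.05 ± 0.11 in females, and the male call was lost under 9 of 19 alternatives.

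Rab9b, a paralogue of the Rab9a that returns receptors from late endosomes to the trans-Golgi, was the late endosomal rise. Dehydrated males had 553, 620, 512, 620 and 596, against 462, 445, 486, 487 and 573 in control males. Control array 5 reached into the dehydrated range. The log2 change was 0.24 ± 0.07 (SE, adjusted p = 0.0374) in males and 0.10 ± 0.11 in females, and the male call was lost under 11 of 19 alternatives. Rab7a, the main Rab of late endosomes, was not called; its probe set 1387797_at averaged 692 ± 66.9 in dehydrated and 658 ± 17.3 in control females and 994 ± 31.8 in dehydrated and 973 ± 48.5 in control males (SD). Rab7b, which acts from late endosomes to the Golgi, had the lowest female p of the role. It read 46.3, 27.1, 43.6 and 56.2 in dehydrated females, against 74.7, 60.0, 58.6 (array 3) and 68.5 in control females, and the groups were separate. Its value of −0.56 ± 0.19 (SE) had an adjusted p of 0.142. The other genes of this role were not called, and over 11 genes the median was 0.07 in females (8 above 0) and −0.14 in males (4 above 0).

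Among Rabs of the endoplasmic reticulum and Golgi, both Rab6 genes had calls in dehydrated males, all higher. These were 3 of 18 tested probe sets of the role, where 17.7% of all probe sets were called in either direction (8.32% higher). Rab6 recruits motor adaptors for traffic out of the Golgi, and Rab6b is the form enriched in neurons. Rab6b at probe set 1392478_at had 316, 290, 281, 298 and 252 in dehydrated males, against 178, 214, 213, 216 and 221 in control males. Dehydrated females had 248, 243, 274 and 266, against 246, 204, 209 and 222 in control females. The male groups were separate, and the female groups overlapped only at control array 1. On the log2 scale this was 0.45 ± 0.08 (SE) in males (adjusted p = 0.00125) and 0.22 ± 0.10 in females (adjusted p = 0.274).

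The other Rab6b probe set, 1388632_at, read 1019, 1027, 894, 1046 and 997.5 in dehydrated males, against 723 (array 1), 772, 895, 887.5 and 922 in control males. Dehydrated array 3 lay among the 3 highest controls. In log2 terms it amounted to 0.25 ± 0.07 (SE) in males (adjusted p = 0.0249) and −0.02 ± 0.11 in females (adjusted p = 0.936). Rab6a at 1372707_at read 948, 931, 807, 938 and 908.5 in dehydrated males, against 758, 750, 775, 768 and 877 in control males. Each group held 1 array that reached into the other. In females it read 1144, 1059, 1270 and 1092 with dehydration, against 842, 983, 1045 and 980.5 in controls, and these groups were separate. In log2 fold change this came to 0.20 ± 0.06 (SE) in males (adjusted p = 0.0281) and 0.25 ± 0.11 in females (adjusted p = 0.25). The other Rab6a probe set, 1371103_at, gave 0.20 ± 0.11 in males (adjusted p = 0.237) and 0.46 ± 0.30 in females (adjusted p = 0.427). The male calls of 1388632_at and of Rab6a were lost under 9 and 11 of 19 alternatives, and that of 1392478_at under none.

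Rab1 and Rab2 forms, which carry cargo between endoplasmic reticulum and Golgi, were not called. Rab1a, which acts in the first step of that route, averaged 2308 ± 361 in dehydrated and 1950 ± 140 in control females, and 1598 ± 82.0 in dehydrated and 1614 ± 183 in control males (SD). Rab1b reached 0.29 ± 0.10 (SE) in males at probe set 1382947_at, with an adjusted p of 0.0682. Rab2a, needed for retrieval from the intermediate compartment, had the lowest female p of the role. Its signals at 1370087_at were 613, 617, 597 and 467 in dehydrated females, against 444, 194, 433 and 553 in control females. Dehydrated array 4 overlapped the controls and control array 2 stood far below them. Its log2 fold change was 0.58 ± 0.26 (SE, adjusted p = 0.246). Rab18, Rab2b, Rab30, Rab33a and Rab33b had no call in either set.

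None of the Rabs between Golgi and plasma membrane was called by limma; at an unadjusted p under 0.05 there was 1 of 9 probe sets in females and 2 of 10 in males, against 19% and 31.4% of all probe sets. Rab10, which delivers vesicles to the surface and along the growing axon, came closest in females at 1368847_at. It read 161, 142, 136 and 109 in dehydrated females, against 103, 80.4, 80.0 and 105 in control females. All dehydrated female pools lay above all controls. Male signals were 118, 121, 111, 112 and 114 with dehydration, against 126, 94.9, 108, 103 and 84.9 in controls, and they overlapped. The fitted log2 change was 0.54 ± 0.15 (SE) in females (adjusted p = 0.0728) and 0.16 ± 0.10 in males (adjusted p = 0.276). Rab10 passed in females under 5 of 19 alternatives, among them leaving out the 2 arrays of lowest Gapdh ratio (0.58, adjusted p = 0.0404). The other Rab10 probe set, 1375338_at, gave 0.01 ± 0.11 in females and 0.12 ± 0.05 in males. Rab40b, a Rab with a SOCS box that joins a ubiquitin ligase, had the lowest male p of the role at −0.41 ± 0.15 (SE, adjusted p = 0.0702). It was called without dehydrated male array 5 (−0.54, adjusted p = 0.0112) and without control male array 2 (−0.48, adjusted p = 0.0492).

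Rab28, a Rab of the ciliary base and of photoreceptors, rose in dehydrated males. Its signals were 945, 919, 893, 957 and 869 in dehydrated males, against 791, 777, 693, 759 and 773.5 in control males. Dehydrated females had 827, 852, 901 and 942, against 661.5, 862, 660 and 713 in control females. The male groups were separate, and control array 2 alone made the female groups overlap. The log2 change was 0.27 ± 0.05 (SE) in males (adjusted p = 0.00261) and 0.29 ± 0.11 in females (adjusted p = 0.196; 0.0318 in 1 fit over all 4 groups). Rab23, which restrains hedgehog signalling at the cilium, leaned the other way. It read 40.1, 28.3, 48.8 and 48.1 in dehydrated females, against 61.3, 51.9, 70.5 and 65.5 in control females, and the groups were separate. Its value was −0.54 ± 0.18 (SE) in females (adjusted p = 0.132) and −0.42 ± 0.15 in males (adjusted p = 0.0659). Rab23 was called in males without dehydrated array 1 (−0.53, adjusted p = 0.0157) and in females with array weights (−0.62, adjusted p = 0.0342).

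Of the partners named after a Rab, Rab3gap2 was called. It is the non-catalytic subunit of a complex that is a GAP for Rab3 and an exchange factor for Rab18. Dehydrated males had 116, 110, 89.7, 112 and 102, against 99.6, 74.1, 73.6, 74.9 and 86.6 in control males. Control array 1 lay above the lowest dehydrated array. On the log2 scale this was 0.35 ± 0.10 (SE, adjusted p = 0.028) in males and 0.00 ± 0.20 in females, and the male call was lost under 7 of 19 alternatives. Its catalytic partner Rab3gap1 gave 0.02 ± 0.05 in males and 0.03 ± 0.10 in females. Rab5if, named as an interacting factor of Rab5 and not itself a GTPase, read 767, 756, 791.5, 748.5 and 783 in dehydrated males, against 572, 656, 607, 635 and 537.5 in control males. The male groups were separate by a wide margin, at 0.35 ± 0.06 (SE, adjusted p = 0.000904). Females read 534, 541, 424 and 765 with dehydration, against 404.5, 480, 392 and 413 in controls, with overlap (0.39 ± 0.16, adjusted p = 0.208; 0.0421 in 1 fit over all 4 groups).

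**Figure D3:**
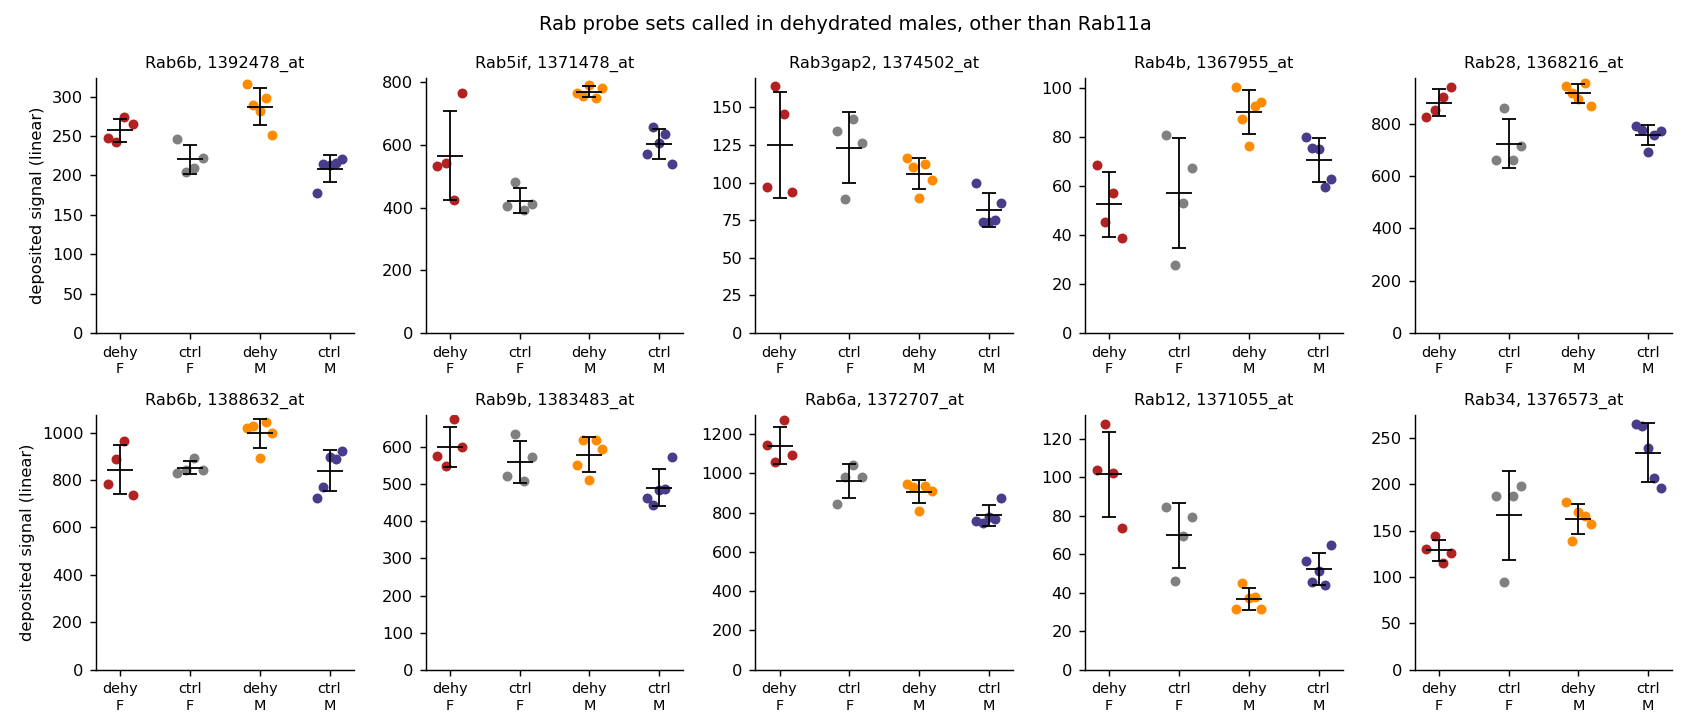
Deposited signal (linear vertical axis from 0) of the 10 other probe sets called in dehydrated males, on each array, with dehydrated left of control in females (F) and then in males (M); bars are mean and SD. Rab6b 1392478_at, Rab5if, Rab28 and Rab34 have no overlap between the male groups, while the other 6 overlap at 1 or more arrays.

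Rab11 family interacting proteins, the effectors that link Rab11 to motors and tethers, were not called in either set. Rab11fip4 came closest: dehydrated females had 129, 145, 122 and 140, against 179, 204, 189 and 163 in control females. The female groups were separate, with the dehydrated lower. In log2 terms it amounted to −0.44 ± 0.11 (SE) in females (adjusted p = 0.0609) and −0.10 ± 0.14 in males (adjusted p = 0.674). The female value was called with a filter at the 50th percentile (−0.44, adjusted p = 0.0477) and with array weights (−0.43, adjusted p = 0.0204). Rab11fip5 gave −0.49 ± 0.16 in females and −0.09 ± 0.07 in males, Rab11fip3 −0.36 ± 0.22 and −0.20 ± 0.11, and Rab11fip1 −0.27 ± 0.19 and −0.26 ± 0.14 in the same order. All 4 genes were below 0 in both sets. Of all probe sets 46.2% were above 0 in females and 43% in males. The share below 0 in both sets was not counted, so nothing particular to these genes is shown. Of the oligodendrocyte markers 5 of 12 were lower in females and none in males. Their female sums were 4547 to 7775 in dehydrated against 8017 to 11272 in control arrays. Female sums of the microglial, the meningeal and mural, and the GABAergic neuron markers were also lower without overlap. That of the magnocellular markers was higher, and those of the remaining lists overlapped. The part of any of these cells in the Rab11fip values was not tested.

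No Rab probe set was called in the test of the difference between the female and male effects (0 of 84 by limma, against 0.0322% of all probe sets), and 6 of 84 had an unadjusted p under 0.05, where 10% of all probe sets did. A call in males without a call in females is therefore not shown to be a difference. The median standard error of a Rab log2 fold change was 0.16 in females and 0.10 in males. Of the 11 probe sets called in males, 8 had a female log2 fold change of the same sign. The exceptions were Rab12, Rab4b and Rab6b 1388632_at. The same count was not made over all probe sets called in males, so nothing particular to the Rabs is shown by it.

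**Figure D4:**
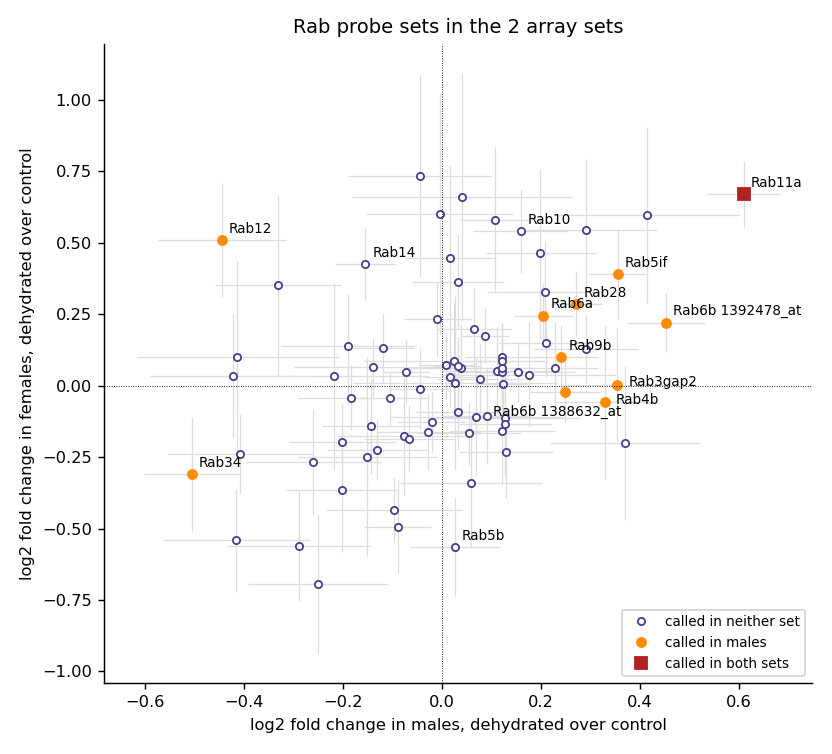
Log2 fold change (dehydrated over control) of each Rab probe set tested in both sets, males on the horizontal and females on the vertical axis, with standard errors as grey bars. Rab11a stands at the upper right as the only probe set called in both. Rab12 1371055_at lies at the upper left, called lower in dehydrated males and above 0 but not called in females.

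Where a Rab gene had several tested probe sets, they often differed. In females 20 genes had more than 1, the median range between the log2 fold changes of a gene was 0.40, and 8 of the 20 had probe sets of opposite sign. In males the range was 0.20 over 21 genes, and 7 had opposite signs. These counts were not made over all genes, so they are not shown to be particular to the Rabs. Rab22a, a Rab of early endosomes, had the widest range in both sets, 1.29 in females and 0.66 in males. Its 3 probe sets gave 0.60 ± 0.31, −0.69 ± 0.24 and −0.17 ± 0.11 (SE) in females, and 0.41 ± 0.19, −0.25 ± 0.14 and 0.05 ± 0.11 in males. None of these was called.

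Control female array 2 stood apart at part of the Rabs. On it 9 of 83 Rab probe sets (10.8%) were more than 2-fold below the mean of the other control arrays, against 4.97% of all probe sets. These were Rab1b 1382946_a_at, Rab5a 1387641_at, Rab7a 1398838_at, Rab30 1398640_at, Rab14 1385314_at, Rab11b 1398825_at, Rab2a 1370087_at, Rab5b 1399153_at and Rab4b. Rab5a 1387641_at, for example, read 271, 222, 251 and 141 in dehydrated females, against 186, 49.7, 132 and 205 in control females. Its value of 0.73 ± 0.35 (SE), the highest of all Rab probe sets in females, had an adjusted p of 0.287. For 7 of these 9 genes another tested probe set of the same gene was not among them, and the exceptions were Rab30 and Rab4b. Whether RNA length on this array set these values was not tested. Without it and dehydrated female array 4, 3 Rab probe sets were called in females: Rab11a (0.59, adjusted p = 0.0117), Rab10 and, lower, Rab34 (−0.54, adjusted p = 0.0307).

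**Figure D5:**
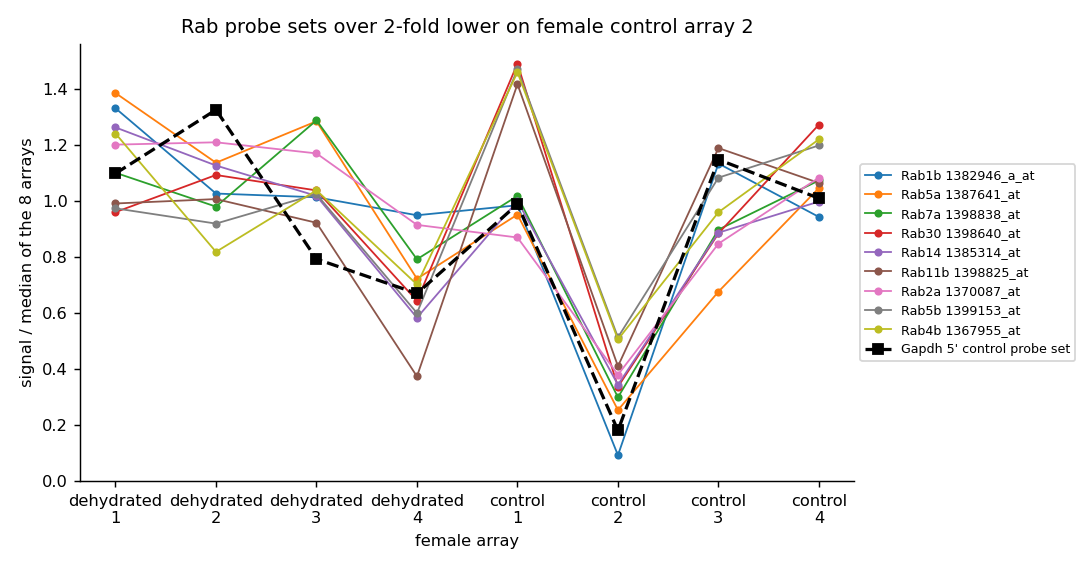
Signal on each female array divided by the median of the 8 arrays (linear vertical axis from 0), dehydrated arrays left and control arrays right, for the 9 Rab probe sets over 2-fold lower on control array 2 and, dashed, for the 5′ control probe set of Gapdh. Gapdh and 8 of the 9 Rab probe sets have their lowest point at control array 2, and Rab11b at dehydrated array 4.

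Regulators and effectors of these Rabs were read from lists of 168 genes, of which 145 had a probe set. None of the 135 tested in females was called by limma (21 at an unadjusted p under 0.05, 6 higher and 15 lower, where 21.4% of all genes passed), and of 140 tested in males 13 were higher and 10 lower (3.83% of all genes were called in females and 21.1% in males). Trappc6b and Trappc1, subunits of the TRAPP complex that activates Rab1, rose by 0.35 ± 0.07 and 0.27 ± 0.06 (SE; adjusted p = 0.00509 and 0.00801). The Trappc1 call was lost with quantile normalization (0.17, adjusted p = 0.0654) and in 1 fit over all 4 groups (0.27, adjusted p = 0.122). Trappc6b averaged 570 ± 33.1 in dehydrated and 448 ± 48.7 in control males, and Trappc1 906 ± 56.2 in dehydrated and 750 ± 55.9 in control males (SD, n = 5 each). Bicd2, the dynein adaptor that Rab6 recruits, averaged 281 ± 10.7 in dehydrated and 233 ± 9.66 in control males, a change of 0.27 ± 0.06 (adjusted p = 0.00675). Yif1a, a membrane protein of the route between endoplasmic reticulum and Golgi, averaged 256 ± 11.9 in dehydrated and 191 ± 32.1 in control males (0.42 ± 0.09, adjusted p = 0.00701).

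The falls were led by Mical3, an effector of Rab8 at exocytic vesicles, which averaged 119 ± 16.1 in dehydrated and 182 ± 13.9 in control males (−0.60 ± 0.09, adjusted p = 0.000606). Of 14 early endosomal effectors 3 were called lower and none higher: Appl2, Rabep2 and Rufy1. In males 21.1% of all genes were called in either direction, and 9.38% of all probe sets were called lower. Whether the list differs from these shares was not tested. Appl2, an effector of Rab5, averaged 311 ± 19.2 in dehydrated and 386 ± 22.7 in control males (−0.31 ± 0.06, adjusted p = 0.0044). Rabep2, another Rab5 effector, was dim, at 9.58 ± 7.56 in dehydrated and 27.2 ± 5.69 in control males (adjusted p = 0.00747). No fold is given for it, because its dehydrated signals were near background, and it was bright enough to be tested under 9 of 19 alternatives. Evi5, a GAP for Rab11 in human cells, averaged 290 ± 16.3 in dehydrated and 352 ± 17.0 in control males (−0.27 ± 0.06, adjusted p = 0.00665). By list, the early endosomal effectors had 0 higher and 3 lower of 14, the Golgi effectors 2 higher and 1 lower of 18, the exchange factors 3 higher and 2 lower of 37, and the GAPs 3 higher and 2 lower of 29.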

How the data were processed

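Affymetrix arrays of the rat supraoptic nucleus were deposited as 1 table of intensity signals per probe set. The deposited intensities were made by the authors with GCOS 1.2 for the male arrays and MAS5 for the female arrays, per the submitters' processing notes; each array's 2% trimmed mean was about 100, and the values were not on a log2 scale. Summary settings and a genome build are not given in the sources used here. Columns of the 5 lactating samples held no values and were not analysed here, no arrays held identical values, and 57 control probe sets were left out.

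Printed signals are as deposited. For tests, arrays were scaled to a trimmed mean of 500 and taken to log2(value + 32), probe sets above the 30th percentile of mean log2 value were kept (21729), and limma 3.58.1 in R 4.3.3 (lmFit, eBayes with trend) was fitted separately to females (4 dehydrated, 4 control) and males (5 and 5), with an interaction over all 18 arrays for the difference. P-values were adjusted over all kept probe sets at a threshold of 0.05, and the fit was tested on simulated data. The number of arrays limits the precision, with median SEs over all probe sets of 0.17 in females and 0.12 in males.

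Genes came from the platform annotation: 20832 probe sets had 1 symbol, 436 several and 9831 none. Where genes were counted, the probe set of highest mean stood for each. Named were all called Rab probe sets, the lowest p of each role and set, and of the regulators the 4 rises and 4 falls of lowest p; other Rabs are named as context, having been seen first. Members and lists were chosen with earlier results of these data known. Alternatives were normalization, offset, filter, trend, array weights, the array CH2770, a shared fit, each array left out, and, added after seeing the data, both female arrays of lowest Gapdh ratio left out. Figures used Python 3.11.15 and matplotlib 3.10.9.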

Additional observations from a re-analysis of the deposited data

Results flagged for a closer look

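Of 76 groups of signals (19 named Rab probe sets in 4 groups), 8 held an array that stood apart from the others of its group by Dixon's ratio at the 95% level; chance alone flags about 1 in 20 groups. Rab5b 1388823_at read 369.7 on dehydrated male array 2, below 472 to 511 on the other dehydrated males. Rab2a 1370087_at read 467 on dehydrated female array 4, below 597 to 617 on the other dehydrated females. Rab6a 1372707_at was flagged in both male groups, low at 807 on dehydrated array 3 (the others 908.5 to 948) and high at 877 on control array 5 (the others 750 to 775), which are the arrays that made its male groups overlap. Rab6b 1392478_at read 178 on control male array 1, below 213 to 221. Rab40b 1383826_at read 96.5 on control female array 4, above 80.1 to 82.8, and 62.7 on control male array 2, below 80.5 to 84.2. Rab34 1376573_at read 95.1 on control female array 2, below 187 to 198 on the other control females; this is the array with the Gapdh 5′ to 3′ ratio of 0.243, and without it the female fall of Rab34 passed the threshold. No Rab probe set passed the test of a difference between the female and male effects.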

How the results depend on the processing

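Calls of Rab11a, Rab28, Rab6b 1392478_at, Rab34 and Rab5if in males held under all 19 alternatives, and the female call of Rab11a under all except keeping CH2770 (0.28, adjusted p = 0.897), with a female adjusted p of 0.000143 to 0.0464 otherwise. The count of Rab probe sets called in females, 1 in the main fit, was 2 with quantile normalization, 2 with median centring, 2 with a filter at the 50th percentile, 8 with array weights, 8 with 1 fit over all 4 groups, 3 without the 2 arrays of lowest Gapdh ratio and 0 with CH2770. Female Rab genes, 1 in the main fit, were 2 with the 50th percentile filter, 6 with weights, 6 with the shared fit, 2 without both arrays and 0 with CH2770. Female regulators, 0 in the main fit, were 1 without a filter, 1 with the 50th percentile filter, 10 with weights, 15 with the shared fit and 1 without both arrays. The shared fit gave 5 male Rab probe sets (11 in the main fit), 4 genes (9) and 12 regulators (23), and array weights gave 1 Rab in the difference. The shared fit assumes the same spread in both sets, and the cause of its other counts was not tested.

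Leaving out 1 array at a time gave 1 to 4 female Rab probe sets (4 without dehydrated array 3), 1 to 3 female genes, 0 to 4 female regulators (4 without control array 2), 6 to 13 male Rab probe sets (6 without dehydrated array 2, dehydrated array 4 or control array 3), 4 to 10 male genes (4 without dehydrated array 2 or 4), 17 to 28 male regulators and 0 to 2 in the difference (2 without dehydrated female array 3). Log2 fold changes that turned sign were all uncalled. With CH2770 the female values were −0.025 for Rab28, −0.17 for Rab6a, −0.10 for Rab6b 1392478_at and −0.56 for Rab9b. Rab5b in males was −0.014 with quantile normalization and −0.014 with weights. Rab6b 1388632_at in females was 0.020 with median centring and 0.035 without both arrays, and Rab3gap2 −0.18 with weights and −0.018 without both arrays. With 1 array left out, female values ran from −0.094 to 0.12 for Rab31, −0.14 to 0.12 for Rab3gap2, −0.33 to 0.12 for Rab4b and −0.088 to 0.040 for Rab6b 1388632_at, and male values from −0.019 to 0.10 for Rab5b. No paired analysis was possible because the labels give the groups no shared replicate numbers. Signals near background limit Rab31, Rabep2 and the 15 untested Rab probe sets.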

Other observations

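The array titled CH2770, left out above, differed from the other dehydrated female arrays at Rab transcripts too. Rab11a 1398814_at read 235 on it, Rab28 295, Rab6b 1388632_at 127, Rab6b 1392478_at 81.8 and Rab9b 54.8. Each was below every one of the other 8 female arrays. Rab34 1376573_at at 171 and Rab12 1371871_at, at 575, were closer to the others, and Rab5if at 388 lay just under the lowest control signal of 392.

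Further regulators rose or fell in dehydrated males, and these were chosen after their values were seen. Vps35, the core of the retromer that returns receptors from endosomes to the Golgi, rose by 0.23 ± 0.05 on the log2 scale (SE, limma adjusted p = 0.00806), with mean signals of 889 ± 28.4 in dehydrated and 760 ± 42.6 in control males (SD, n = 5 each). Gorasp2, a Golgi stacking protein, rose by 0.31 ± 0.08 (adjusted p = 0.0132), and Exoc3, a subunit of the exocyst tether, by 0.22 ± 0.06 (adjusted p = 0.0312). Rufy1, an effector of Rab4 and Rab14, had −0.47 ± 0.11 (adjusted p = 0.00825), at 116 ± 19.6 in dehydrated and 162 ± 17.0 in control males. Fyco1, which links Rab7 to kinesin, had −0.38 ± 0.11 (adjusted p = 0.0242).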
